A study of Mus musculus with 10 samples.

Results

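The linker histone H1 genes were followed in newborn mouse thymus in which Usp7 had been removed from one or both alleles in the hematopoietic system. The list held 7 genes, H1fx, H1f0 and Hist1h1a to Hist1h1e, and was matched by Ensembl identifier (GENCODE M21 names) to the 35375 features of the count table. H1fx was chosen by its measured values, its near loss in the homozygous knockout libraries, so that its level there is given as a description with no test. The other 6 names complete the somatic H1 family. Of the 7 genes, 6 were counted and all 6 passed the filter on low counts, which 19511 features passed in all. The identifier of H1f0 matched no row, and H1f0 is not analysed here.

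H1 proteins bind the nucleosome where DNA enters and leaves it, and they help to fold chromatin. Hist1h1a to Hist1h1e lie in the large histone cluster together with core histone genes, and they are transcribed mainly in S phase into mRNAs that end in a stem-loop in place of a poly(A) tail. H1fx and H1f0 lie outside that cluster and give polyadenylated mRNAs that do not depend on DNA replication, and H1f0 is known for its accumulation in cells that have stopped dividing.

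Total RNA was taken from thymus 3 days after birth, depleted of ribosomal RNA, and sequenced in 10 libraries of strain background C57BL/6J. The 3 homozygous KO libraries lacked both Usp7 alleles and the 3 heterozygous KO libraries lacked one, in each case in the hematopoietic system. The 4 wild type libraries were described for the series as 2 with and 2 without cre induction, and the sample labels do not say which are which. Wild types 3 and 4 are wild type by their titles and genotype labels, which were followed here, but their columns in the count table carry the words wt and het, while those of wild types 1 and 2 carry wt and wt. What het stands for there is not given in the sources used here. The driver of the cre was not given in the sources used here. The stated target was the hematopoietic system, and whether thymic epithelium or other stroma was also affected is not given. Because ribosomal depletion keeps RNAs without a poly(A) tail, the replication-dependent H1 mRNAs could be counted.

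Sequences upstream of 4 of the cluster genes are shown for the promoter elements that replication-dependent H1 genes are known for. Each is the 150 bases before the RefSeq start (GRCm38.p6), written in the direction of the gene, with capitals marking 3 motifs searched on both strands, overlapping matches included. They are the H1 box with the letters AAACACA, the CCAAT box with the letters of its name and the TATA box with the letters TATAA.

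Hist1h1a, chr13:23763518-23763667, plus strand: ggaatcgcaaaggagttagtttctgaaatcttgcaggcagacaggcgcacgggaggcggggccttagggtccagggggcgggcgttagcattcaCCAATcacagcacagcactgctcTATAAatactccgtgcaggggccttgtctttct
Hist1h1b, chr13:21780626-21780775, minus strand: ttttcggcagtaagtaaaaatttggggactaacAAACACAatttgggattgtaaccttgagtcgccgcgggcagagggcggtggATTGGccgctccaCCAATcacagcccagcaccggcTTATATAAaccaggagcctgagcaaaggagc
Hist1h1c, chr13:23738657-23738806, plus strand: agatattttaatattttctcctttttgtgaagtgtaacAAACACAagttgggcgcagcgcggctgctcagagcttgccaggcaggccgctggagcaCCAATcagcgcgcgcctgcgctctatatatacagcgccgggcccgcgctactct
Hist1h1e, chr13:23622559-23622708, minus strand: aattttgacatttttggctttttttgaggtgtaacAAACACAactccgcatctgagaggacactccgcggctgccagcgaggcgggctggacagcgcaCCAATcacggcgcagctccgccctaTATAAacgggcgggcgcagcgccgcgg

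AAACACA, the letters of an element known from H1 promoters, was found upstream of Hist1h1b, Hist1h1c and Hist1h1e, with its first base between -117 and -112, where -1 is the last base before the start. It was not in the window of Hist1h1a. In windows of 300 bases (250 before to 50 after the start), the H1 box was held by 7.18% of 32851 promoters, the CCAAT box by 37.4%, the TATA box by 24.9% and all of them by 0.953%. The CCAAT box was found upstream of each of these 4 genes, and the letters TATAA upstream of each but Hist1h1c. The printed Hist1h1c window holds tatatata, which those search letters do not match. The windows before the RefSeq starts of H1fx and Hist1h1d lie inside the GENCODE exons of these genes, so they are neither shown nor compared. The last 2 bases of the Hist1h1a window also lie in its GENCODE exon. A match is a description of the letters only.

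The 3′ hairpin of replication-dependent histone mRNAs, searched as a 16-base hairpin, was found in the annotated transcripts of 3 members. It is printed here in capitals with 5 bases on each side, because it marks the mRNA type.

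Hist1h1c: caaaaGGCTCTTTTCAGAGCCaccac
Hist1h1d: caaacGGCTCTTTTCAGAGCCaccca
Hist1h1e: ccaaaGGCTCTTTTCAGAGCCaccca

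The hairpin letters were the same in the 3 genes and the flanks were not. Such a hairpin was found in 60.7% of 61 core histone genes named Hist and in 0.0642% of genes not named Hist. It was not matched in the annotated transcripts of Hist1h1a, Hist1h1b or H1fx. The GENCODE model of Hist1h1b is 743 bases long and the RefSeq span 794, so the model may end before a hairpin. A missing match therefore does not show that an mRNA lacks the hairpin.

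Total counts ran from 39833850 to 122380785 per library, wild types 1 and 2 being the shallowest, and a floor of 3 counts corresponded to 0.026 to 0.0737 CPM, the counts of a gene relative to a library total adjusted by the trimmed mean of M values (TMM). Usp7 itself was at 303, 422 and 408 CPM in homozygous KO, 472, 516 and 516 in the heterozygous libraries, and 676, 670, 594 and 589 in wild type, so its order followed the labels without overlap, and wild types 3 and 4 (594 and 589 CPM) lay above every heterozygous library. Which exons were deleted was not given in the sources used here, and counts from the remaining exons would still be included. Xist was at 1913 CPM or more in homozygous KO 3 and wild type 2, 3 and 4 and at 1.12 CPM or less in the other libraries, so that the sexes were not balanced and no heterozygous KO library carried the Xist signal.

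H1fx (ENSMUSG00000044927, GRCm38 chr6:87980421-87981637, minus strand, 1 exon) was nearly absent from homozygous KO. Its level was 0.833, 0.567 and 1.25 CPM in homozygous KO 1 to 3. In heterozygous KO it was 37.6, 32.0 and 29.2 CPM, and in wild type 31.5, 25.2, 16.4 and 27.5 CPM. All homozygous libraries lay far under every other library, while heterozygous KO and wild type overlapped.

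The homozygous values rested on 96, 58 and 113 counts, above the floor of 3 in each library, so the counts were low and not at 0. The mean was 0.884 ± 0.345 CPM (SD, n = 3) in homozygous KO, 3.52% of the wild type mean of 25.1 ± 6.41 CPM (n = 4). The edgeR estimate for homozygous KO against wild type was a log2 fold change of -4.83 (SE 0.30), and for homozygous KO against heterozygous KO -5.23 (SE 0.31). The level differed from wild type by -4.78 on the log2 scale among libraries with title numbers 44 to 51 and by -4.99 among those with 56 to 63. In bulk tissue, fewer cells of a type and less RNA per cell cannot be told apart.

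**Figure D1:**
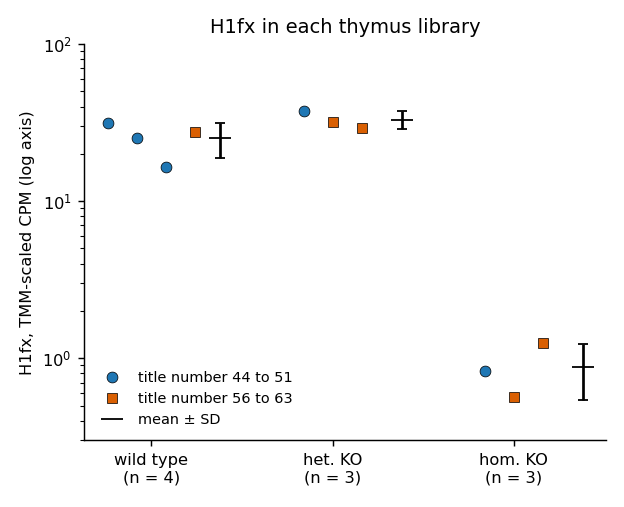
H1fx in TMM-scaled CPM (log axis) in each of the 10 libraries by group, with circles for title numbers 44 to 51 and squares for 56 to 63, and the mean ± SD beside each group. The 3 homozygous KO libraries sit between 0.567 and 1.25 CPM, and the other 7 between 16.4 and 37.6.

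Heterozygous KO against wild type was not used to choose H1fx and could be tested. The heterozygous mean was 32.9 ± 4.27 CPM, 131% of wild type, and the difference (log2 fold change 0.39, SE 0.23) did not pass the test (edgeR quasi-likelihood, Benjamini-Hochberg adjusted p = 0.769). Wild type 3 was the lowest of the 7 libraries and wild type 1 lay above heterozygous KO 3, the lowest of its group. The estimate ran from 0.22 to 0.59 over the alternatives tried and was called under none of them.

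H1fx is overlapped on the other strand by Gm5577, an antisense transcript, and the counting strand was not given in the sources used here. Gm5577 was at 0.330, 0.411 and 0.277 CPM in homozygous KO, 1.53, 1.0 and 1.29 in the heterozygous libraries, and 1.42, 0.867, 0.900 and 1.69 in wild type. It was lower in homozygous KO without overlap (log2 fold change -1.84, SE 0.31, adjusted p = 0.00156, edgeR). Reads of the pair cannot be told apart without strand. Around H1fx, 43 genes were annotated within 500 kb, 22 were in the count table and 17 were tested, of which 2 rose and 1 fell in homozygous KO against wild type (median log2 fold change 0.10, against -0.01 over all features tested). The 1 that fell was Gm5577. Over all features tested, 12.5% were called higher and 13.2% lower.

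The nearest tested genes on each side of H1fx were compared in homozygous KO against wild type, on the log2 scale (edgeR). On one side Hmces, a DNA-protein crosslink protein, differed by 0.20 (SE 0.07, adjusted p = 0.0475), Copg1, a coat protein subunit, by -0.02 (adjusted p = 0.815), and Cnbp, a nucleic acid binding protein, by 0.10 (adjusted p = 0.315). On the other side Rab7, a GTPase of late endosomes, differed by 0.11 (adjusted p = 0.1), Rpn1, a subunit of the oligosaccharyl transferase, by 0.14 (adjusted p = 0.071), and Gata2, a hematopoietic transcription factor, by -0.41 (adjusted p = 0.727). Only Hmces of these 6 passed the test. No neighbour was called in heterozygous KO against wild type, where 0.0154% of all features tested were called.

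**Figure D2:**
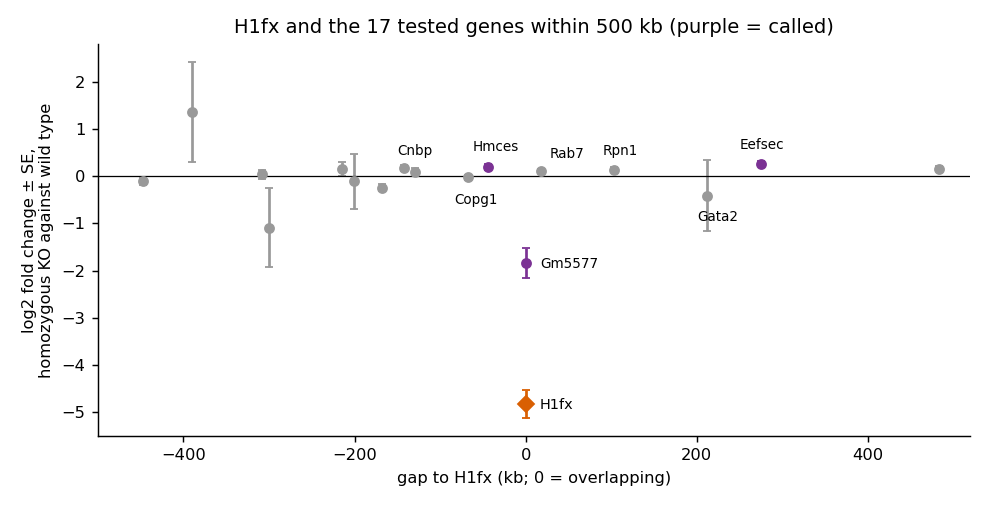
Log2 fold change of homozygous KO against wild type (± SE, edgeR) for H1fx and the 17 tested genes within 500 kb, by gap to H1fx in kb, with called genes in purple. H1fx lies at -4.83 and overlapping Gm5577 at -1.84, and the called neighbours Hmces and Eefsec lie at 0.20 and 0.27.

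The genes most like H1fx across the 10 libraries were compared by the root mean square difference in centred log2 CPM, over 11655 genes. The nearest was Scara3, a scavenger receptor family member, at a distance of 0.44, followed by Ncs1, a calcium sensor, at 0.57. Ly6d, a surface protein of early B lineage cells, and Ccl22, a chemokine of dendritic cells, followed at 0.59 each, and H2-Ob, a chaperone chain of antigen presentation, at 0.63. The means in homozygous KO, heterozygous KO and wild type were 0.375, 11.4 and 12.5 CPM for Scara3 and 3.98, 60.2 and 59.5 CPM for Ly6d. These genes shared low levels in homozygous KO and similar levels in the other groups. H1fx was chosen for its low homozygous level, so nearness to it selects this pattern, which is no separate result.

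B cell markers were also lower in homozygous KO. Of the list of 5, Cd79a, Cd79b, Ms4a1 and Pax5 were called lower in homozygous KO against wild type, and the summed level of the list was 13.2 to 14.9 CPM in homozygous KO, 31.2 to 32.8 in heterozygous KO and 34.6 or more in every wild type library. None of the 5 was at 0 in every library. In homozygous KO the H1fx mean was 3.52% of wild type. In heterozygous KO the H1fx mean was 131% of wild type. Neither H1fx nor any of the 5 B cell genes was called against wild type, where 0.0154% of all features tested were. The summed heterozygous B cell level lay under every wild type library, in a comparison where 8.69% of the features tested did not overlap. Of the mature thymocyte list, 5 of 6 were also called lower, with summed levels of 157 to 208, 286 to 315 and 285 to 386 CPM. The myeloid list had 2 called higher and 3 lower of 8, with summed levels of 64.7 to 221 CPM in homozygous KO and 68.5 to 79.6 in wild type. Over all features tested, 12.5% were called higher in homozygous KO against wild type and 13.2% lower. The part of these marker lists in the H1fx result was not tested.

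The 5 cluster genes went the other way, and 4 of them passed the test. Hist1h1a, Hist1h1b, Hist1h1c and Hist1h1d were called higher in homozygous KO against wild type. Hist1h1e was also higher without overlap but did not pass the test. Of the features tested, 12.5% were called higher in this comparison and 13.2% lower, and the groups did not overlap in 32.7%. The 5 estimates had a median of 0.74 on the log2 scale, against -0.01 over all features tested.

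Hist1h1d (ENSMUSG00000052565, GRCm38 chr13:23553262-23560686, plus strand) had the largest difference of the 5. It was at 2663, 2016 and 1843 CPM in homozygous KO, 1429, 726 and 801 in the heterozygous libraries, and 1119, 1247, 1439 and 626 in wild type. Every homozygous library was above every other library. The log2 fold change to wild type was 0.97 (SE 0.28, adjusted p = 0.0264, edgeR), with a homozygous mean of 2174 ± 433 CPM at 196% of wild type.

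Hist1h1b (ENSMUSG00000058773, chr13:21779883-21780625, minus strand) was at 1670, 1163 and 1030 CPM in homozygous KO, 1011, 561 and 586 in the heterozygous libraries, and 754, 852, 862 and 457 in wild type. The homozygous libraries were above all others, the nearest being heterozygous KO 1. The log2 fold change to wild type was 0.82 (SE 0.26, adjusted p = 0.0382).

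Hist1h1c (ENSMUSG00000036181, chr13:23738808-23740367, plus strand) was at 2984, 1984 and 2073 CPM in homozygous KO, 1626, 1027 and 1072 in the heterozygous libraries, and 1383, 1624, 1691 and 910 in wild type. Homozygous KO overlapped with neither other group. The log2 fold change was 0.74 (SE 0.23, adjusted p = 0.0335).

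Hist1h1a (ENSMUSG00000049539, chr13:23763666-23764406, plus strand) was at 1637, 1214 and 1088 CPM in homozygous KO, 1146, 763 and 840 in the heterozygous libraries, and 928, 962, 925 and 736 in wild type. Homozygous KO lay above wild type in all libraries but overlapped with heterozygous KO 1. It differed least of the 5, by 0.56 (SE 0.16, adjusted p = 0.0257).

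Hist1h1e (ENSMUSG00000051627, chr13:23620629-23622558, minus strand) was at 1089, 613 and 664 CPM in homozygous KO, 676, 402 and 410 in the heterozygous libraries, and 531, 592, 585 and 313 in wild type. Homozygous KO did not overlap with wild type, but the log2 fold change of 0.64 (SE 0.26) did not pass the test (adjusted p = 0.0995). Its annotated exon shares 32% of its 50-base words with other genes, mostly Hist1h2be and Gm11398, so its counts could include reads of those genes or lose them. The share was 8.54% for Hist1h1c and 2.25% for Hist1h1d, and 0% for Hist1h1a, Hist1h1b and H1fx.

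**Figure D3:**
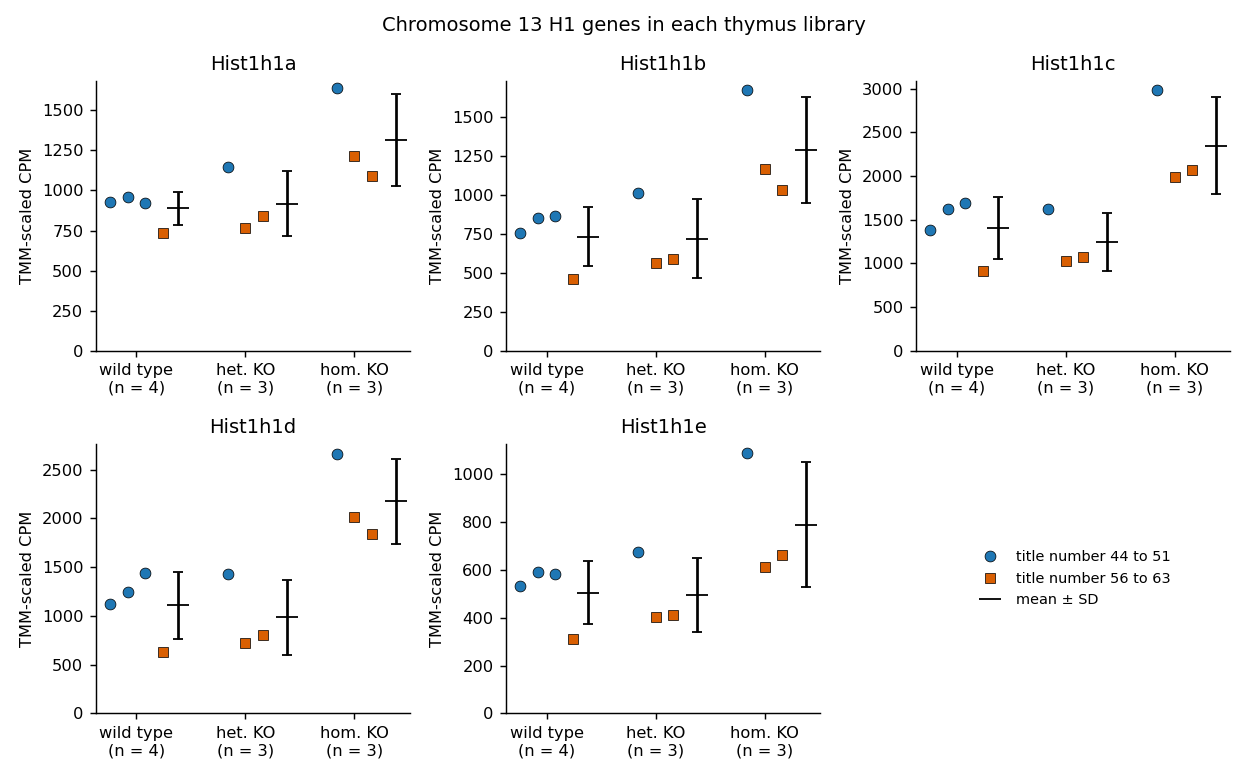
TMM-scaled CPM of the 5 cluster H1 genes in each library by group, from 0, with circles for title numbers 44 to 51, squares for 56 to 63, and the mean ± SD. Within each group the square libraries lie below the circle libraries, as in Hist1h1d, where wild type 4 is at 626 CPM and the other wild types at 1119 to 1439.

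The spread within groups was shared by the 5 genes. Libraries whose titles carry the numbers 56 to 63 were lower than those with 44 to 51, with differences of -1.01 to -0.35 on the log2 scale in wild type, -0.91 to -0.52 in heterozygous KO and -0.77 to -0.47 in homozygous KO over the 5 genes. The labels do not say what the numbers mean. H1fx differed by 0.23, -0.30 and 0.02 in the same order of groups.

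The homozygous difference was seen within both sets of numbers. Among 44 to 51 (1 homozygous library against 3 wild types) it was 0.80, 1.02, 0.94, 1.08 and 0.94 for Hist1h1a to Hist1h1e, and among 56 to 63 (2 against 1) 0.64, 1.26, 1.16, 1.62 and 1.03. With the number set as a term in the edgeR fit all 5 were called, with log2 fold changes of 0.74, 1.15, 1.03, 1.36 and 0.97 and adjusted p-values from 1.52e-06 to 2.39e-05. Without that term the count of 4 rested on single libraries: it was 0 without homozygous KO 1, 1 without wild type 1 and 1 without wild type 4. It was 0 with Xist as a covariate, 0 with wild types 1 and 2 alone, 0 with wild types 3 and 4 (the columns that carry het) alone and 1 with library totals alone. All 5 estimates stayed positive under every one of these settings.

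Heterozygous KO against wild type, which shares the wild type libraries with the comparison above, showed 0 of 6 H1 genes called, where 3 of all features tested (0.0154%) were called and 1421 had an unadjusted p under 0.05. The log2 fold changes (edgeR) were 0.05 for Hist1h1a, -0.02 for Hist1h1b, -0.18 for Hist1h1c, -0.17 for Hist1h1d and -0.03 for Hist1h1e, each with SE 0.16 to 0.28 and adjusted p-values of 0.917 to 0.993. All 6 genes overlapped between these groups, and 8.69% of the features tested did not. A DESeq2 fit called 71 features in this comparison and none of the 6.

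In homozygous KO against heterozygous KO, 2 of the 5 cluster genes were called higher, Hist1h1c (log2 fold change 0.92, SE 0.25, adjusted p = 0.0258) and Hist1h1d (1.14, SE 0.31, adjusted p = 0.026). Of all features tested, 7.63% were called higher and 9.50% lower. Hist1h1b was higher without overlap but did not pass the test (0.84, adjusted p = 0.0632), and Hist1h1a (0.52, adjusted p = 0.0671) and Hist1h1e (0.67, adjusted p = 0.146) overlapped with heterozygous KO. Groups did not overlap in 33.3% of all features tested. The count was 0 without homozygous KO 1, 0 without heterozygous KO 2, 0 without heterozygous KO 3 and 4 without heterozygous KO 1, and 5 with the title numbers 44 to 51 and 56 to 63 as a term.

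**Figure D4:**
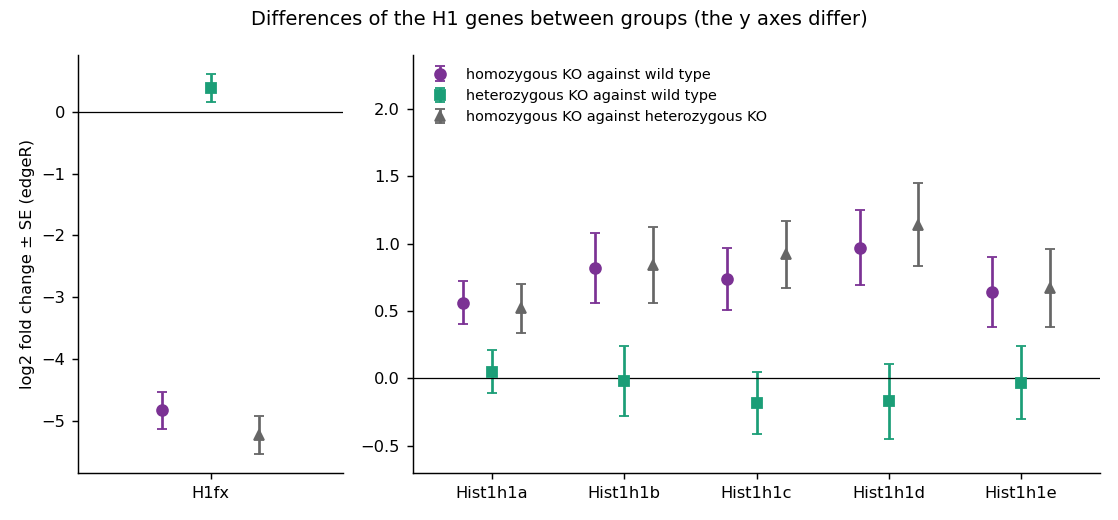
Log2 fold change ± SE (edgeR) of the H1 genes in the 3 comparisons, with H1fx on its own axis. The 5 cluster genes lie between 0.56 and 0.97 in homozygous KO against wild type and between -0.18 and 0.05 in heterozygous KO against wild type, while H1fx lies at -4.83 and 0.39.

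Together the 5 cluster genes took 0.946%, 0.665% and 0.655% of all counts in homozygous KO, 0.605%, 0.35% and 0.376% in the heterozygous libraries, and 0.482%, 0.535%, 0.566% and 0.311% in wild type. The homozygous libraries were the 3 highest of the 10. The H1fx share of H1 counts was 0.296% to 0.896% in wild type and 0.00811% to 0.0187% in homozygous KO. Within the 5, the Hist1h1d share was 26.5%, 28.8% and 27.5% in homozygous KO and 20.6% to 26.2% in the other 7 libraries. The Hist1h1c share stayed between 27.6% and 31% in every library.

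Between genes, levels were compared per length. In wild type, on the GENCODE exon length, Hist1h1a was at 1198 ± 138 CPM per kb, Hist1h1b at 984 ± 254, Hist1h1c at 899 ± 227, Hist1h1e at 262 ± 68.0, Hist1h1d at 149 ± 46.7 and H1fx at 20.7 ± 5.27 (SD, n = 4). The ranges of mean ± SD overlapped for the first 3 of these. All genes were measured in the same libraries, so their spread is shared, and a difference within libraries was not tested. The order depends on the gene model: on RefSeq spans, Hist1h1c was at 1934 ± 488 CPM per kb and Hist1h1d at 1427 ± 447, because the GENCODE models of these genes are 1560 and 7425 bases long and the RefSeq ones 725 and 776. H1fx had the lowest level per length on either model.

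Each cluster gene varied over the libraries most like core histone genes. By the measure used for H1fx, Hist1h4a and Hist1h4c were nearest to Hist1h1a (0.11 each), Hist1h2ad and Hist1h2ah to Hist1h1b (0.07 each), and Hist2h3c2 (0.06) and Hist1h2ah (0.08) to Hist1h1c. Hist1h4j (0.07) and Hist1h2an (0.11) were nearest to Hist1h1d, and Hist1h2bf and Hist1h2ad (0.09 each) to Hist1h1e. Of 61 core histone genes named Hist, 43 were tested, and in homozygous KO against wild type 34 were called higher and 2 lower (median 0.85). The count higher was 22 to 39 over the alternatives. The shares over all features tested were 12.5% higher and 13.2% lower. Hist1h4m was the highest, at 1.96, and did not pass the test. Hist1h2ba rose by 1.37 and Hist1h2bb by 1.08, and Hist3h2a fell by 0.67.

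Germline linker histones had low counts. Hist1h1t was at 3.96 to 8.29 CPM in homozygous KO and 2.32 to 5.01 in wild type, H1foo at 1.26 to 1.46 and 1.08 to 2.39, and neither was called. H1fnt had 9, 17 and 7 counts in the homozygous libraries, 0, 0 and 16 in the heterozygous ones and 0 in every wild type, and Hils1 had 1 count in wild type 4 and 0 in all other libraries. Neither passed the filter on low counts.

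Genes that work with the H1 proteins and with histone mRNAs were called in part, most of the calls being higher in homozygous KO against wild type. Of 9 replacement core histones, 5 were called higher and 1 lower, where 12.5% of all features tested were called higher and 13.2% lower. H2afx, the damage-marked variant, rose by 0.60 (SE 0.13), Cenpa, the centromere variant, by 0.47, H2afv by 0.45 and H2afz by 0.39. Of 15 genes of histone transcription and mRNA 3′ processing, 6 were called higher (median 0.18), Slbp, which binds the histone stem-loop, most, by 0.43 (SE 0.10), and 0 lower. Leaving only wild types 3 and 4 as controls took that count to 0.

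Of 6 chaperones that carry H1, 3 were called higher, Ptma by 0.48 (SE 0.08), Nasp by 0.25 and Nap1l1 by 0.21. The shares over all features tested were again 12.5% higher and 13.2% lower. Of 8 HMG proteins, which compete with H1 for nucleosome sites, 4 were called higher, Hmgb2 by 0.68 (SE 0.12), Hmgn5 by 0.45, Hmga1 by 0.42 and Hmgn1 by 0.31. Of 8 enzymes and readers of H1 marks, 5 were called higher, among them Cdk1 by 0.51 and Ezh2 by 0.46, and 1 lower. The lower one was Padi4, which citrullinates H1, by -1.88 (SE 0.17), from a mean of 15.2 CPM in wild type to 4.12 in homozygous KO. With library totals alone, 1 chaperone and 2 enzymes or readers were called higher. None of these lists had a call in heterozygous KO against wild type, where 3 of all features tested (0.0154%) were called.

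S phase and mitosis genes, like the cluster genes, were higher in homozygous KO than in wild type. Of 19 S phase genes, 18 were called higher in homozygous KO against wild type (median 0.40), Rrm2, of ribonucleotide reductase, by 0.58 and Chaf1a, of the chromatin assembly factor, by 0.54. All 10 mitosis genes were called higher (median 0.50), Cdc20 by 0.63 and Ccnb2 by 0.58. Both counts fell with fewer wild types, to 5 S phase genes with wild types 3 and 4 and to 4 mitosis genes with wild types 1 and 2. The summed S phase level was 4980 to 6530 CPM in homozygous KO, 4566 to 4898 in heterozygous KO and 4063 to 4473 in wild type, and the mitosis level 6377 to 8834, 5410 to 6395 and 4590 to 5760. Homozygous KO 1 was the highest of its group for S phase (6530 CPM), mitosis (8834 CPM) and the summed cluster genes (10043 CPM). Heterozygous KO 1 was the highest of its group for mitosis (6395 CPM) and the cluster genes (5888 CPM), and heterozygous KO 2 for S phase (4898 CPM). Wild type 4 had the highest S phase level of the wild types (4473 CPM) and the lowest cluster level (3043 CPM). Wild type 3 had the lowest S phase (4063 CPM) and mitosis (4590 CPM) levels of the wild types and the highest cluster level (5501 CPM). These are ranks within small groups. Of 6 fibroblast markers, 4 were called higher, with summed levels of 10.4 to 32.3 CPM in homozygous KO and 4.25 to 12.9 in wild type, and 2 of 6 thymic epithelial markers were called higher (43.1 to 118 and 40.1 to 59.6 CPM). The fibroblast count was 0 with the title numbers as a term and 0 without homozygous KO 2. With wild types 1 and 2 alone it was also 0, and without wild type 1 it was 1. It was 2 without wild type 3, without wild type 4 or with wild types 3 and 4 alone. Double-positive thymocyte markers had 2 higher and 1 lower of 8, at 8110 to 8320 CPM in homozygous KO and 9542 to 10902 in wild type. Against wild type, the shares over all features tested were 12.5% higher and 13.2% lower. The part of the S phase, mitosis and marker genes in the H1 differences was not tested. Against heterozygous KO, 3 of 19 S phase and 2 of 10 mitosis genes were called higher, and 31 of 43 core histones. In that comparison 7.63% of all features tested were called higher and 9.50% lower. The core histone count was 16 without heterozygous KO 3, 17 without heterozygous KO 2 and 19 without homozygous KO 1, and 39 with the title numbers as a term. Over the alternatives the S phase count ran from 0 to 10 and the mitosis count from 1 to 8, each highest without homozygous KO 2. The S phase count was 0 without homozygous KO 1, homozygous KO 3, heterozygous KO 1 or heterozygous KO 3, and 2 without heterozygous KO 2, and the mitosis count was 1 without any one of these 5 libraries.

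**Figure D5:**
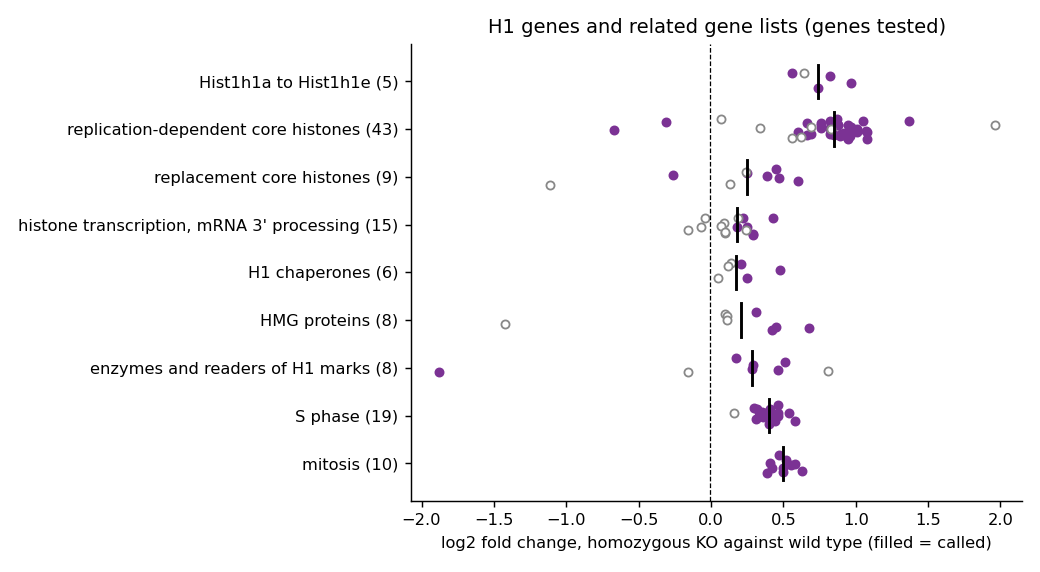
Log2 fold change of homozygous KO against wild type for each tested gene of the cluster H1 genes and related lists, filled where called, with the list median as a bar and the median of all features tested as a dashed line. The medians are 0.74 for the 5 H1 genes, 0.85 for the core histones, 0.40 for S phase and 0.50 for mitosis.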

How the data were processed

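Counts of reads per gene for 10 thymus libraries were deposited by the authors as a raw count table with no normalization. Per the labels and the submitters' processing notes, libraries were made with the stranded KAPA RNA HyperPrep Kit with RiboErase, and CASAVA, STAR 2.4.1d, HTSeq 0.6.1p1 and builds NCBIM37 and mm9 were named. The annotation release and the strand setting of the counting are not given in the sources used here, and reads of near-identical histone genes may be split or dropped by the counting. Gene models, symbols and promoters were taken from GENCODE M21 and RefSeq on GRCm38, so coordinates printed are of that build and not of the files'. Of 34467 features with an Ensembl identifier, 30204 matched a symbol, and 908 features had none.

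Features were filtered with filterByExpr, scaled by TMM and fitted with edgeR 4.0.16 (R 4.3.3) quasi-likelihood over all 10 libraries, with no covariate. Calls were made at a Benjamini-Hochberg adjusted p under 0.05 over 19511 features, CPM per library was scaled by TMM, and the fits were tested on simulated data. Nothing says that libraries of a group were separate litters, so p-values measure the spread between these samples. No pair of libraries of a group agreed within counting noise (chi-square per degree of freedom 12.9 or more). Alternatives were DESeq2 1.42.0, other scalings, filters, covariates and left-out libraries.

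All members were named. Of each list, up to 4 called genes with the largest change in homozygous KO against wild type were named, as were the genes nearest to each member in pattern and the 3 tested neighbours of H1fx on each side. The core histone list was made by symbol, and its members outside that rule were named after their values were seen. One marker set is reported in part, and what was left out is not reported here. The members and lists were chosen with earlier results of these data known.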

Additional observations from a re-analysis of the deposited data

Results flagged for a closer look

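Wild type 4 had the lowest Hist1h1a level of the wild types, 736 CPM against 925 to 962 CPM in the others, and its gap to the nearest was 0.836 of the range of the group, above the 95% critical value of Dixon's test for 4 libraries. Such a gap arises by chance in about 1 in 20 groups. The same library was the lowest wild type for Hist1h1b (0.732), Hist1h1c (0.606), Hist1h1d (0.606) and Hist1h1e (0.780), each under the critical value. It is the only wild type whose title number lies in 56 to 63.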

How the results depend on the processing

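Of the 5 cluster genes, 4 were called in homozygous KO against wild type. The count was 1 with library totals alone, 0 with Xist as a covariate, 0 with only the wild types with 1 wt word in their title (wild types 3 and 4, whose count columns add het) and 0 with only those with 2 (wild types 1 and 2), and 0 to 4 with 1 library left out. Against heterozygous KO the count of 2 became 5 with the title-number term and ran from 0 to 4 with 1 library left out. For heterozygous KO the count against wild type was 0 under every alternative run. The cause of these changes was not tested, beyond fewer samples where libraries were left out.

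The replicate numbers of the titles did not pair the samples: same-numbered deviations correlated by -0.10 to 0.23, and the labels give no shared origin. With the replicate number as a block, the count was 4 in homozygous KO against wild type, 5 against heterozygous KO (2 without the block) and 0 in heterozygous KO against wild type, where Hist1h1a turned to -0.06.

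Other signs turned only in heterozygous KO against wild type, with no call. Hist1h1a was -0.12 with the Xist covariate, -0.04 with the wild types with 2 wt words, -0.14 without heterozygous KO 1 and -0.03 without wild type 4. With the title-number term, Hist1h1b was 0.28, Hist1h1c 0.10, Hist1h1d 0.16 and Hist1h1e 0.30. With the wild types with 1 wt word, Hist1h1b was 0.12 and Hist1h1e 0.15. Hist1h1b was 0.13 without heterozygous KO 2, 0.10 without heterozygous KO 3, 0.06 without wild type 2 and 0.06 without wild type 3. Without heterozygous KO 1, Hist1h1b was -0.34, Hist1h1d -0.53 and Hist1h1e -0.31. Hist1h1d was 0.01 without heterozygous KO 2, and Hist1h1e 0.11, 0.09, 0.06 and 0.05 without the same libraries in turn as Hist1h1b.

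With library totals alone the median of all features moved to -0.11 in homozygous KO against wild type, and 29.0% of calls were higher, against 48.6% with TMM (26.9% against 44.6% for homozygous against heterozygous KO). The title-number term with wild type 4 left out and the RefSeq spans were chosen after seeing the data, and the former called 5. Depth does not limit H1fx, whose lowest count was 58.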
